A study of Homo sapiens with 12 samples.

Results

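The cytosolic ribosomal protein genes were followed across 12 RNA-seq libraries of A549, an established line derived from a human lung carcinoma. A gene counted as a member when it was protein coding and its symbol was that of a large subunit protein (RPL), a stalk protein (RPLP) or a small subunit protein (RPS or RPSA), and 88 of the 58676 genes in the table met the rule. The members comprised 43 large subunit genes, 3 P stalk genes, 30 small subunit genes, 8 paralogs of subunit genes, 3 readthrough genes that join a subunit gene to its neighbour, and RPS19BP1, which encodes a protein that binds RPS19 and is not a subunit. All 76 core subunit genes passed the filter of a mean of at least 1 FPKM (fragments scaled for gene length and library size), as did 6 of the 8 paralogs and RPS19BP1. The 83 genes that passed entered the tests. RPL3L, RPL10L and the 3 readthrough genes did not pass, and RPL10L and the readthrough genes were listed at 0 in every library. RPS27A and FAU, whose ribosomal proteins are made as fusions, fall outside the rule and are given separately.

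The 3 A549 lines compared were a control line (Control1) and NFE2L1 KO1 and NFE2L1 KO2, 2 knockout lines of NFE2L1, a transcription factor that raises proteasome gene expression when the proteasome is inhibited. Each line received DMSO vehicle or 200 nM bortezomib, a proteasome inhibitor, for 4 h, and each of the 6 groups held 2 libraries. The labels give 1 control line and 2 knockout lines and do not say whether the lines are clones or whether the paired libraries came from separate cultures, so p-values measure the spread between these libraries, which may be technical. One library of each group carries the suffix R2. Its partner carries R1 in the knockout lines and no number in the control line.

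Ribosomal proteins are made in near-equal amounts and assembled with ribosomal RNA in the nucleolus, and copies that find no partner are degraded by the proteasome. Their mRNAs typically begin with a tract of pyrimidines, the 5′ terminal oligopyrimidine (TOP) motif, through which translation is controlled by growth signalling. RPL5 and RPL11, when not built into ribosomes, bind the ubiquitin ligase MDM2 and inhibit it.

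The start sites of core genes and paralogs are shown for the pyrimidine tract named above. Each line gives 30 bases of the RefSeq promoter table (GRCh38.p14), from 15 before the annotated start to 15 from the start onward, read on the gene's own strand. Capitals mark an unbroken run of C and T that begins with C exactly at the annotated start and is at least 5 bases long. Shown are 4 core genes each followed by its paralog, RPS19, RPL13A and RPS9 for their large differences under bortezomib, and RPS26, which differed in the other direction.
RPS19 (chr19:41860240-41860269, plus strand): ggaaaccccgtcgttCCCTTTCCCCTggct
RPL13A (chr19:49487593-49487622, plus strand): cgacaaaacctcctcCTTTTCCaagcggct
RPS9 (chr19:54200843-54200872, plus strand): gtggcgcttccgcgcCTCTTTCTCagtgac
RPS26 (chr12:56041903-56041932, plus strand): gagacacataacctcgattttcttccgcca
RPS27 (chr1:153990747-153990776, plus strand): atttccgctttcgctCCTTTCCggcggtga
RPS27L (chr15:63157463-63157492, minus strand): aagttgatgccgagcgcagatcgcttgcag
RPL22 (chr1:6199581-6199610, minus strand): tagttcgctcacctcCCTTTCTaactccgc
RPL22L1 (chr3:170870181-170870210, minus strand): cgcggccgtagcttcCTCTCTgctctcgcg
RPL26 (chr17:8383179-8383208, minus strand): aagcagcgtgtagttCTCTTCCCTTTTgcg
RPL26L1 (chr5:172958714-172958743, plus strand): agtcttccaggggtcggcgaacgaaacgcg
RPL36A (chrX:101390996-101391025, plus strand): tttgcctcgcggtttCTTTCTTTCCgcgcc
RPL36AL (chr14:49620612-49620641, minus strand): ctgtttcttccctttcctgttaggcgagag
A run of this kind was found at 1 or more annotated starts of 47 of the 69 members with a promoter entry (68.1%), against 1404 of all 27305 genes in the promoter table (5.14%). Among core genes it was found in 45 of 61 (73.8%). Among paralogs it was found in 1 of 6 (16.7%), that one being RPL22L1. The search reads only the base annotated as the start, so RPS26 and RPL36AL, whose windows hold C and T runs displaced from that base, count as having none. RPL10A, not shown, also had a large difference under bortezomib, and it has no such run at its annotated start either. Whether the run goes with the difference under bortezomib was not tested.

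Reads assigned to genes of the table, recovered from FPKM and gene length, ran from 13211608 to 23819258 per library. NFE2L1 itself was lower in both knockout lines, at 72.7 and 151 FPKM in control vehicle, 8.45 and 14.8 in KO1 vehicle, and 18.6 and 33.6 in KO2 vehicle (first library, then R2). Its KO1 difference under vehicle was -3.11 (SE 0.53, adjusted p 0.0666 in limma) on the log2(FPKM + 1) scale, and -3.27 (SE 0.19, adjusted p 6.20e-05) in limma with a term for the replicate suffix. The KO2 difference under vehicle was -2.02 (SE 0.53, adjusted p 0.371 in limma), and -2.18 (SE 0.19, adjusted p 4.48e-04 in limma) with that term. Of 9 A549 epithelial markers, KRT8, KRT18, KRT7, AKR1B10, ALDH1A1 and NQO1 had median levels above 200 FPKM, and CDH1 (3.39) and EPCAM (4.30) were low. The alveolar type II genes SFTPA1, SFTPB, SFTPC and NKX2-1 had medians of 0 to 0.0106 FPKM, while ABCA3, the fifth marker of that cell on the list, was at 3.60 to 28.3 (median 10.4). Of 9 genes of blood, vessel, stroma and liver, 8 stayed at or under 0.408 FPKM in every library, and COL1A1 reached 23.3. Under bortezomib, in the mean of 3 lines, ABCA3 fell by 1.21 (adjusted p 0.0417 in limma without the block) and COL1A1 rose by 1.77 (adjusted p 0.00623 in the same limma fit), and their part in the member results was not tested.

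The highest levels belonged to RPS2 (mean of 439 FPKM over 12 libraries), RPL13A (414) and RPL8 (384), and the lowest of the core genes to RPL17 (1.11), RPS10 (1.41) and RPL36A (2.66). The core median was 101 FPKM. These levels depend on the length by which the authors divided. The deposited lengths of core genes had a median of 2980 bases, against 858 bases for the principal transcript in GENCODE 29, and the ratio of the lengths ran from 1.06 for RPL37 to 20.1 for RPS29. Per kilobase of the principal transcript, RPS16 and RPS19 ranked 1 and 2 of the members instead of 5 and 12, and RPS24 ranked 10 instead of 37. RPL17, RPS10 and RPL36A stayed near the bottom on this scale, at ranks 83, 82 and 76. They share 32.7%, 39.4% and 8.40% of their exon bases with other genes on the same strand, among them their readthrough genes, and the part of this overlap in their levels was not tested. Annotated pseudogenes of 75 members, 1009 in all, held 0.912% of the reads of members and pseudogenes together, with 29.9% for RPL23A, 18.6% for RPL41, 16.7% for RPL9 and 13.1% for RPL17, the 4 highest shares, so the values of these genes are uncertain.

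The libraries of each group differed more than the groups did. The members took 3.75% of the reads assigned to genes in the unnumbered control vehicle library and 1.70% in its R2 partner. Over all 12 libraries the share ran from 1.29% in KO1 vehicle R2 (95% Wilson interval 1.285 to 1.295) to 4.24% in KO2 bortezomib R1 (4.236 to 4.254), intervals that cover counting error only. Every R2 library was below its partner, in vehicle and bortezomib alike. The median of core genes was 130 and 57.5 FPKM in control vehicle, 110 and 81.9 in control bortezomib, 120 and 46.4 in KO1 vehicle, 134 and 86.2 in KO1 bortezomib, 143 and 61.8 in KO2 vehicle, and 139 and 97.3 in KO2 bortezomib, the R2 library second. The 6 R2 medians all lay below the 6 others. In bulk RNA, a lower level may mean fewer cells expressing a gene or less RNA per cell, and these cannot be told apart.

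**Figure D1:**
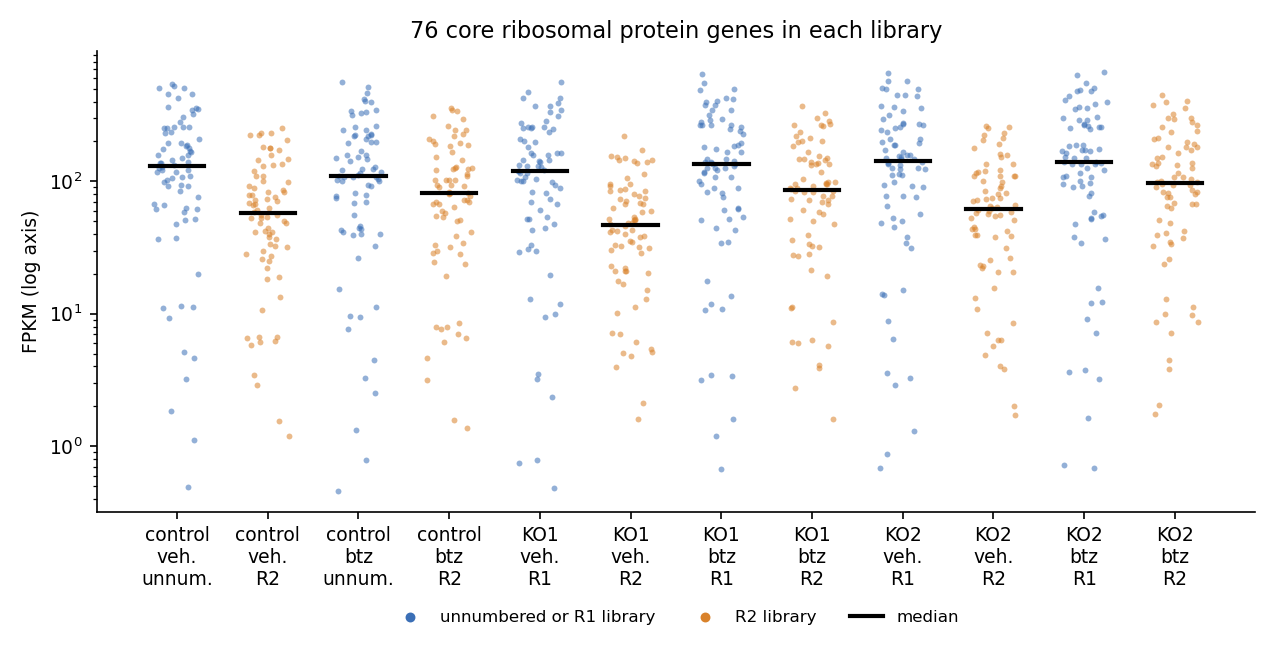
FPKM of the 76 core ribosomal protein genes in each of the 12 libraries on a log axis, 1 point per gene with the library median as a bar, for libraries without a number or with R1 (blue) and R2 libraries (orange). The R2 medians run from 46.4 to 97.3 FPKM and the others from 110 to 143.

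Taken gene by gene, 71 of the 83 members were below their partner in all 6 R2 libraries (85.5%), as were 44.2% of all 12194 genes tested. On the log2(FPKM + 1) scale the median member difference of the control, KO1 and KO2 lines was -1.14, -1.29 and -1.15 under vehicle and -0.47, -0.68 and -0.51 under bortezomib. The medians of all genes lay between -0.34 and -0.11. A further 5 members, among them RPL17 and RPL26, were above their partner in all 6 R2 libraries, and each has a mean level under 6 FPKM. RPL26, a large subunit protein near the exit of the tunnel, was at 5.18 and 6.19 FPKM in control vehicle, 3.50 and 6.14 in KO1 vehicle, and 3.25 and 5.75 in KO2 vehicle. Reads of mitochondrially encoded genes moved with the R2 suffix, at 12.3 to 19.3% in R2 libraries and 5.44 to 6.80% in the others, and their part in the member levels was not tested. The R2-minus-partner differences of all genes correlated between every pair of groups, so results are given with and without a term for it, the replicate block.

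The first comparison asked how the members differed after 4 h of bortezomib. Bortezomib levels were above vehicle for most core subunit genes in the mean of the 3 lines, led by RPS19, RPS9, RPL10A, RPS20 and RPL13A, and below vehicle for RPS26 and for most paralogs. Without the replicate block no member passed an adjusted p of 0.05, and none had an unadjusted p under 0.05, in limma, where 11.6% of all genes passed. Limma-voom on the recovered reads called 0 members, and a single one (1 of 83) reached an unadjusted p under 0.05. In the fit with the block 28 members rose and 2 fell, where 54.9% of all genes were called, with 27.0% higher and 27.9% lower. The count called higher is thus close to the background, and the count called lower is below it. The member median was 0.29 against -0.01 for all genes, and 74 of 83 members were above 0, against 49.3% of all genes.

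The member median of the bortezomib difference was larger in the R2 libraries than in the others. In the 3 R2 pairs alone, with line as a term, 62 of 83 members rose and 0 fell by limma, and the member median was 0.62. Of all 12194 genes 38.7% were called in either direction there, 2535 higher and 2182 lower. In the 3 pairs without R2, 3 members rose (RPL10A, RPS19 and RPL3) and 5 fell (RPS26, RPL36AL, RPL22L1, RPL26L1 and RPS19BP1), with a member median of 0.00. In these pairs 46.6% of all genes were called, 2427 higher and 3253 lower. The bortezomib effect in R2 libraries minus that in their partners had a member median of 0.62 against 0.10 for all genes. No member passed in this test of the difference itself, in which 0 of 12194 genes were called (0%) and the smallest adjusted p of a member in limma was 0.0793. At an unadjusted p under 0.05, 69 of 83 members and 2410 of 12194 genes differed between the library sets. The blocked fit was also repeated without 1 library at a time. Without 1 control library, the control effect rests on the control pair of the other library set. The control vehicle and control bortezomib cases of a library set are thus not separate checks. In the blocked fit the number of members called was 30, and between 8 and 16 when any 1 of the 6 R2 libraries was left out. In those fits 48.9% (control vehicle), 49.0% (control bortezomib), 52.9% (KO1 vehicle), 47.6% (KO1 bortezomib and KO2 vehicle) and 49.5% (KO2 bortezomib) of all genes were called. Without the partner library of control vehicle, control bortezomib, KO1 vehicle or KO2 bortezomib it was between 45 and 52, and without that of KO1 bortezomib or KO2 vehicle it was 25 or 23. The shares of all genes called without a partner library were 50.2% in both control cases, 54.4% and 47.6% for KO1 vehicle and bortezomib, and 47.0% and 51.0% for KO2 vehicle and bortezomib.

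By pair, the member median was -0.23 in the unnumbered control pair and 0.39 in the R2 control pair, 0.21 and 0.81 in KO1, and 0.04 and 0.66 in KO2. In the unnumbered control pair 13 of 83 members were above 0, while in the other 5 pairs 54 to 79 were. Above vehicle in all 6 pairs were 12 members, or 14.5%, a smaller share than the 24.8% of all genes. Among these members were RPL3, RPL4, RPL10A, RPL12, RPL13A, RPS9, RPS19 and RPS20. RPS26 was the 1 member below vehicle in all 6 pairs (1.20%), beside 23.8% of all genes.

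**Figure D2:**
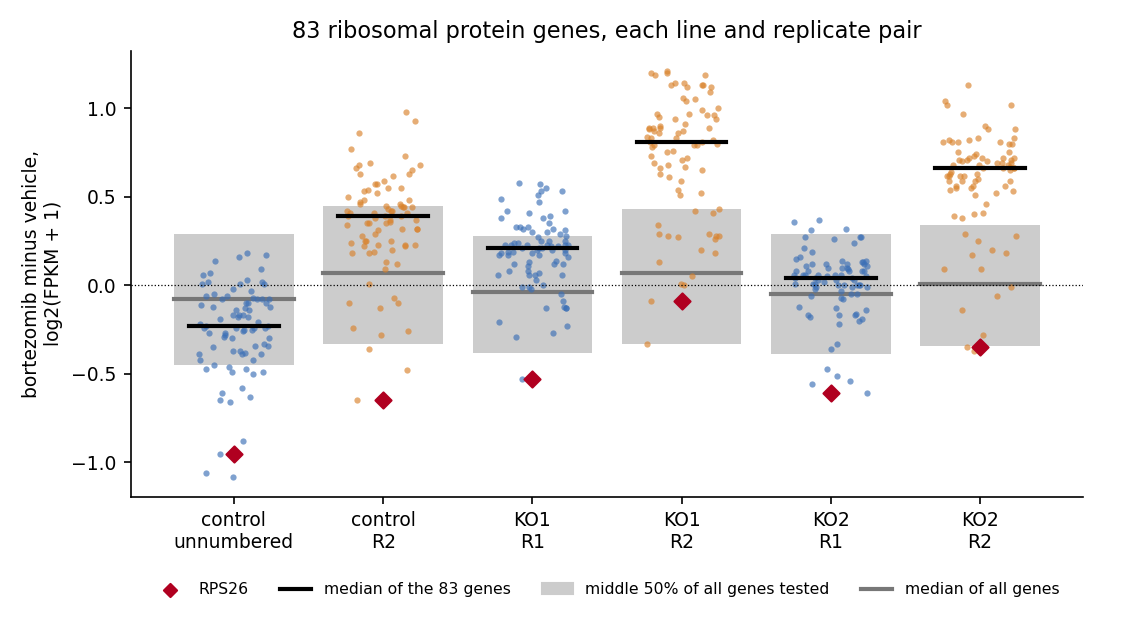
Bortezomib minus vehicle on the log2(FPKM + 1) scale for the 83 members in each line and replicate pair, with the member median (black bar), the median of all genes (grey bar), the middle 50% of all 12194 genes (grey box) and RPS26 (red diamond). Member medians are 0.39, 0.81 and 0.66 in the R2 pairs and -0.23, 0.21 and 0.04 in the others, and RPS26 is below 0 in each pair.

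**Figure D3:**
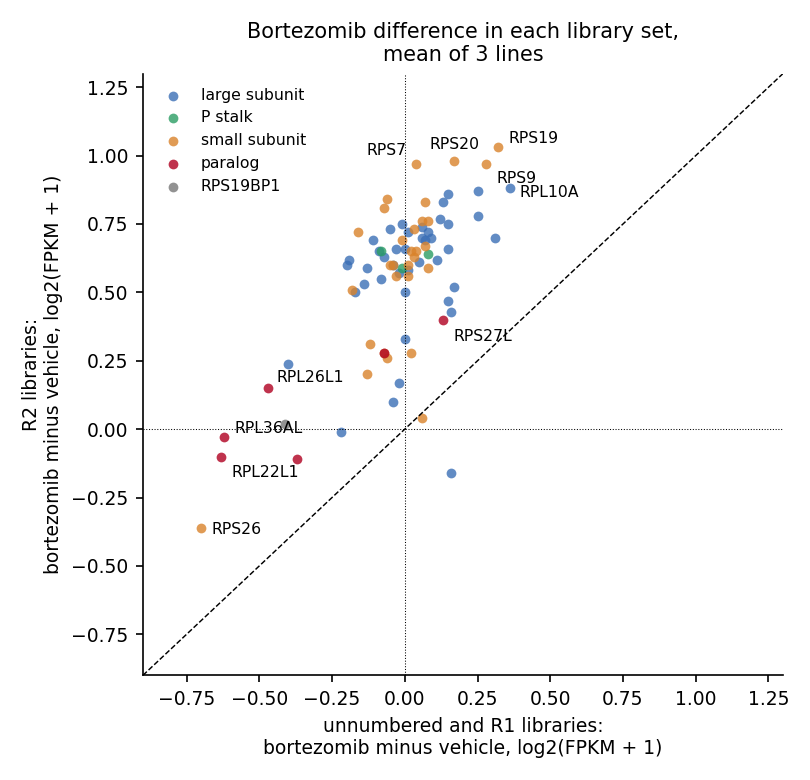
Bortezomib minus vehicle, mean of 3 lines on the log2(FPKM + 1) scale, for each member in the R2 libraries (vertical) and in the unnumbered and R1 libraries (horizontal), coloured by class, with the line of equal difference dashed. Of the 83 genes 81 lie above that line, RPS19 is at 0.32 and 1.03, and RPS26 is at -0.70 and -0.36.

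RPS19, a small subunit protein whose loss causes Diamond-Blackfan anaemia, was at 281 and 157 FPKM in control vehicle and 317 and 311 in control bortezomib. It was at 164 and 85.7 in KO1 vehicle and 228 and 200 in KO1 bortezomib, and at 319 and 162 in KO2 vehicle and 395 and 302 in KO2 bortezomib. Bortezomib was higher in 6 of 6 pairs. In the control line and KO1 both bortezomib libraries exceeded both vehicle libraries, and in KO2 the groups overlapped. The mean difference of 0.67 (SE 0.14) had an adjusted p of 0.0034 in limma with the block. RPS9, a small subunit protein at the mRNA entry channel, rose by 0.62 (SE 0.14, adjusted p 0.00489 in limma with the block), from 117 and 63.2 FPKM to 123 and 102 in the control line. RPL10A, a large subunit protein of the L1 stalk, went from 231 and 120 to 259 and 166 FPKM in control, from 237 and 94.8 to 347 and 198 in KO1, and from 237 and 109 to 307 and 241 in KO2. Its difference was 0.62 (SE 0.13, adjusted p 0.0029 in limma with the block), and it was the 1 member called in KO2 alone (0.75, adjusted p 0.0351, with 12.7% of all genes called higher). Limma-voom with the block, tried after seeing the data, called 12 members in KO2 (32.4% of all genes), 34 in KO1 (33.0%), 4 in control (37.9%) and 55 in the mean (58.0%). RPL13A, known from the interferon-induced silencing complex as well as the ribosome, was at 528 and 223 FPKM in control vehicle and 562 and 357 in control bortezomib, and rose by 0.56 (SE 0.13). RPS20 rose by 0.58 (SE 0.16), with adjusted p of 0.00538 for RPL13A and 0.0122 for RPS20 in limma with the block. The R2 pairs gave the larger rise for each of these 5 genes in all 3 lines.

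With the block 17 of 46 large subunit and stalk genes and 10 of 30 small subunit genes were called higher, counts near the 27.0% of all genes called higher. RPS27L was the other gene called higher. The medians were 0.31 and 0.33. RPL5 was at 157 and 56.0 FPKM in control vehicle and 147 and 83.4 in control bortezomib, and rose in the mean of 3 lines by 0.40 (SE 0.12, adjusted p 0.0184 in limma with the block). RPL11 was at 0.38 (SE 0.15) with an adjusted p of 0.0531, RPS3 at 0.33 with 0.0544 and RPS27 at 0.26 with 0.125. RPS6, the S6 kinase substrate, rose by 0.37 (adjusted p 0.0407) and RPLP0, the stalk base, by 0.36 (0.033). RPL39, which lines the exit tunnel, rose by 0.45 (0.0215). RPL22 differed by 0.16 (0.183), RPL36A by 0.00 and RPL26 by 0.07, and none of these 3 passed. Within lines the block gave 2 members lower and 0 higher in control (32.4% of all genes called, 16.4% lower, 0.467% without the block), 7 higher in KO1 (27.7% called, 13.9% higher, 0.238% without the block) and 1 higher in KO2 (27.0% called, 0.320% without the block). The 7 in KO1 were RPL3, RPL10A, RPL12, RPL13, RPL13A, RPS9 and RPS19, and without the block none was called in any line.

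**Figure D4:**
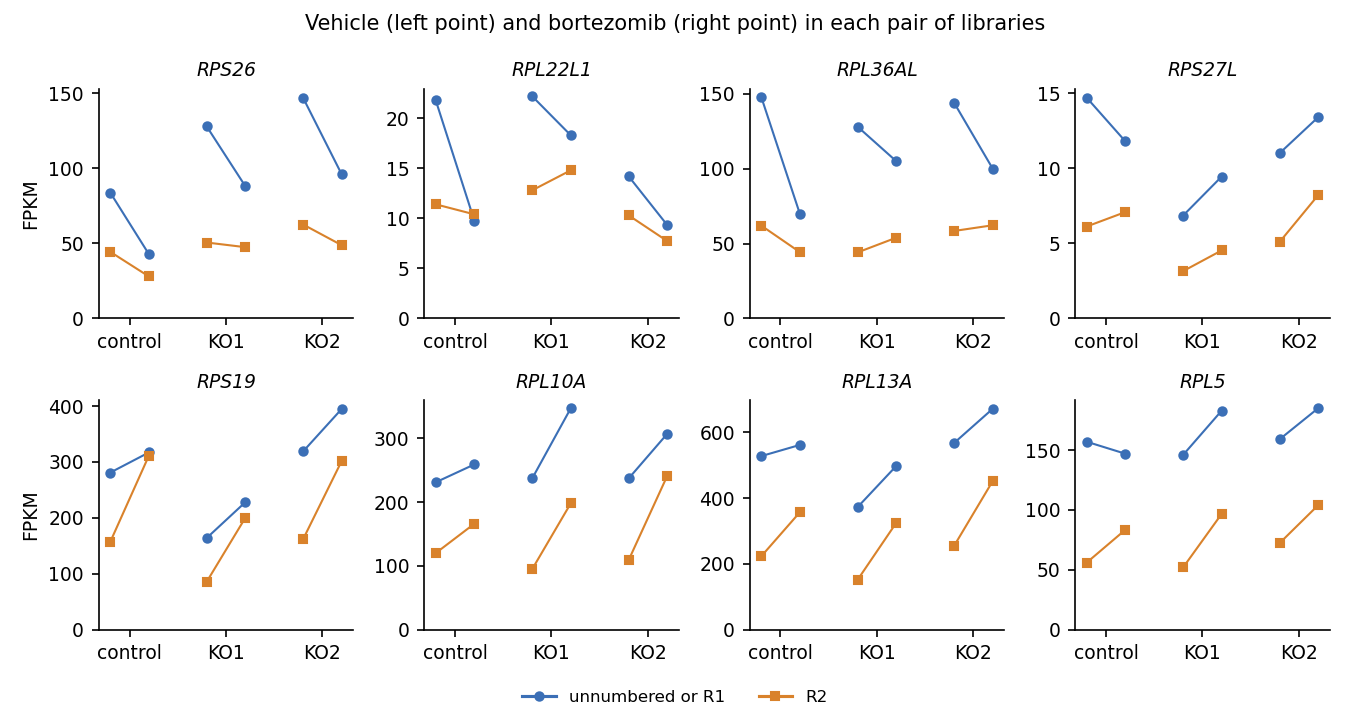
FPKM of 8 members in vehicle (left point of each pair) and bortezomib (right point) for the control, KO1 and KO2 lines, with unnumbered or R1 libraries in blue and R2 libraries in orange. The 6 lines of RPS26 slope down, those of RPS19, RPL10A and RPL13A slope up, and R2 libraries lie below their partners in all but 1 of the pairs drawn, RPL22L1 in control bortezomib.

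RPS26, a small subunit protein at the mRNA exit channel with its own chaperone, TSR2, went the other way. It was at 83.9 and 44.4 FPKM in control vehicle and 42.9 and 28.0 in control bortezomib. In KO1 it was at 128 and 50.6 in vehicle and 88.2 and 47.5 in bortezomib, and in KO2 at 147 and 62.6 in vehicle and 96.0 and 48.8 in bortezomib. Bortezomib was lower in 6 of 6 pairs, by -0.95 and -0.65 in control, -0.53 and -0.09 in KO1 and -0.61 and -0.35 in KO2, and only in the control line did the vehicle and bortezomib libraries not overlap. With the block RPS26 fell by 0.53 (SE 0.09, adjusted p 0.00131 in limma) in the mean and by 0.80 (SE 0.16, adjusted p 0.00635 in limma) in the control line. It also fell in the libraries without R2 alone (-0.70, adjusted p 0.00495 in limma), and in the R2 libraries alone it was at -0.36 with an adjusted p of 0.0789. Without the block its adjusted p was 0.426.

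The paralogs followed their core partners unevenly. RPL22L1, the paralog of RPL22, was at 21.8 and 11.4 FPKM in control vehicle and 9.78 and 10.4 in control bortezomib, 22.2 and 12.8 against 18.3 and 14.8 in KO1, and 14.2 and 10.3 against 9.33 and 7.73 in KO2. It was lower in 5 of 6 pairs and fell by 0.37 (SE 0.13, adjusted p 0.0342 in limma with the block). RPL36AL, the paralog of RPL36A, was listed above it at a mean of 85.0 against 2.66 FPKM. This gap depends on the deposited lengths, and per kilobase of the principal transcript the levels were 85.0 and 24.6. RPL36A also shares exon bases with its readthrough gene, so its level is uncertain. RPL36AL was at -0.33 in the mean with an adjusted p of 0.054 in limma with the block. In the control line RPL36AL fell by 0.77 (adjusted p 0.0266 in limma with the block), from 148 and 62.0 to 70.0 and 44.3 FPKM. RPL39L was at -0.24 with an adjusted p of 0.05, RPL26L1 at -0.16 (0.373), RPL7L1 at 0.11 (0.41) and RPS19BP1 at -0.19 (0.154), all in limma with the block and none called. RPS27L, the paralog of RPS27, rose by 0.26 (SE 0.09, adjusted p 0.0333 in limma with the block) and was higher in 5 of 6 pairs. The median of the 6 paralogs was -0.20, against 0.32 for the 76 core genes.

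Other genes of the translation machinery were described from lists. Of 17 tested TOP genes that are not ribosomal proteins, 10 rose and 0 fell with the block, where 27.0% of all genes were called higher and 27.9% lower, and 0 were called without it. Their median was 0.45, led by EIF3E (0.70), an initiation factor subunit, EEF2 (0.65), the translocation factor, and EIF3F (0.64). The fusion genes RPS27A (0.36) and FAU (0.12) did not pass. Of 74 mitochondrial ribosomal protein genes, whose products serve the mitochondrial ribosome, 13 rose and 16 fell, with a median of -0.01. Of 41 ribosome biogenesis genes 13 rose, near the share of all genes, and 3 fell (median 0.06), and of 30 short respiratory chain genes, a reference for short transcripts, 1 rose and 11 fell (median -0.18). Pair medians of the TOP list were 0.22 in the unnumbered control pair and 0.23 to 0.68 in the others. The pyrimidine run stood at an annotated start of 11 of 12 of these TOP genes with a promoter entry and of 6 of 68 mitochondrial ribosomal protein genes (8.82%).

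One list of 6 genes joined ubiquitin ligases that act on unassembled ribosomal proteins with genes of the MDM2 pathway. CDKN1A, a cell cycle inhibitor of that pathway, rose by 2.25 (SE 0.34, adjusted p 0.00355 in limma without the block) and MDM2 by 1.42 (SE 0.23, 0.00506). With the block UBE2O, which tags orphan ribosomal proteins for degradation, rose by 0.58 (adjusted p 4.50e-04 in limma), and HUWE1 by 0.40 (0.00993), so that 4 of the 6 listed genes rose and 1 fell, where 27.0% of all genes were called higher and 27.9% lower. Of 12 chaperones and importers of ribosomal proteins, 2 rose (TNPO1 and IPO7) and 3 fell (HEATR3, IPO9 and PDCD2). HEATR3, an import adaptor for RPL5, fell also without the block (-0.57, SE 0.15, adjusted p 0.038 in limma). TSR2, the chaperone of RPS26, was at 0.23 with an adjusted p of 0.055 in limma with the block.

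The second comparison set each knockout line against the control line, and both use the same control libraries. With the block, which keeps unnumbered and R1 libraries apart, the average knockout level against control rests on the R2 libraries alone. In KO1 under vehicle, members were mostly below control, with a median of -0.22 and 73 of 83 below 0, against 0.02 and 47.5% of the 12111 other genes below 0. In KO2 the median was 0.05 with 33 below 0. No member passed in limma without the block in KO1 (0.213% of all genes called), KO2 (0.230%), or their mean (0.344%), and none had an unadjusted p under 0.05, by limma-voom either. The member medians moved when 1 library was left out of the fit without the block. There the partner of the lost library stands alone, so the R2-minus-partner difference enters the contrast. The median of KO1 ran from -0.92 without its R1 library to 0.39 without its R2 library. The median of KO2 ran from -0.52 without the R2 control library to 0.62 without its own R2 library. Pairs of like suffix gave -0.17 (R1 against unnumbered) and -0.34 (R2) in KO1, and 0.06 and 0.05 in KO2.

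With the block RPS27L was the 1 member called in KO1 under vehicle, where 5.95% of all genes were called, 2.85% lower. It was at 14.7 and 6.12 FPKM in control, 6.85 and 3.15 in KO1, and 11.0 and 5.09 in KO2. KO1 was below control in both pairs, and the higher KO1 value exceeded the lower control value. The KO1 difference was -0.87 (SE 0.18, adjusted p 0.0259 in limma with the block), and that of KO2 was -0.29 (0.428). Limma-voom with the block called 7 members in KO1 under vehicle (9.83% of all genes). In KO2 under vehicle and in the mean of the knockouts 0 members passed with the block (4.91% and 6.18% of all genes called), with 1 and 4 at an unadjusted p under 0.05. Below control in all 8 knockout pairs, over both lines and treatments, were RPL31 and RPL26. Above it in all 8 were RPL6, RPL17, RPL22 and RPS26, and 12.4% of all genes were above and 8.44% below in all 8.

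RPL31, a large subunit protein at the exit of the tunnel, was at 52.0 and 22.2 FPKM in control vehicle, 29.1 and 12.9 in KO1, then 38.2 and 15.7 in KO2. Both knockout lines were lower in each pair, though the first libraries of both exceeded the R2 control library. RPL37A, a zinc-binding large subunit protein, was at 59.0 and 29.5 in control, 32.8 and 17.6 in KO1 and 45.4 and 22.1 in KO2. RPLP1, an acidic stalk protein, was at 256 and 148 in control, 164 and 84.6 in KO1 and 251 and 121 in KO2. With the block the mean knockout differences under vehicle were -0.68 for RPL31 (adjusted p 0.167 in limma), -0.67 for RPL37A (0.134) and -0.56 for RPLP1 (0.199). RPL6, RPL22 and RPS28 had 0.32 (0.479), 0.16 (0.66) and 0.11 (0.864) in the same fit, so none of these 6 passed.

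Under bortezomib most members were above control in both knockout lines, with medians of 0.20 in KO1 (67 of 83 above 0) and 0.29 in KO2 (77 of 83), against 0.05 for all genes in each. Leaving 1 library out of the fit without the block again let the R2-minus-partner difference into the contrast. The KO1 median then ran from -0.18 without the R1 library of KO1 bortezomib to 0.57 without its R2 library. The KO2 median ran from 0.05 without the R1 library of KO2 bortezomib to 0.55 without its R2 library. The median of the knockout mean, 0.23, ran from -0.01 without the R2 control bortezomib library to 0.51 without the unnumbered one. For the mean of the knockouts 0 members passed in limma without the block (0.164% of all genes called), and with it RPS26 was higher by 0.75 (SE 0.17, adjusted p 0.033; 7.66% of all genes called, 3.90% higher). RPS26 under bortezomib was at 42.9 and 28.0 FPKM in control, 88.2 and 47.5 in KO1, and 96.0 and 48.8 in KO2. All 4 knockout libraries exceeded both control libraries. Under vehicle the mean difference of RPS26 was 0.35 with the block (adjusted p 0.285 in limma). KO1 and KO2 alone, contrasts added later, called 0 members (0.107% and 0.0656% of all genes without the block, 7.54% and 4.81% with it), with adjusted p of 0.0555 and 0.0508 for RPS26 with the block.

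Member differences of the knockout lines varied by chromosome, as did those of other genes. The chromosomes described here were chosen after their values were seen, and chromosome copy number was not measured, so its part was not tested. On chromosome 19 the 8 members between 39.4 and 58.4 Mb (among them RPS16, RPS19, RPL18, RPL13A and RPS9) all lay below control in KO1 under vehicle, with a median of -0.61. The 338 other genes of that span had a median of -0.27, and 75.1% of them lay below 0. The 4 members between 1.44 and 17.9 Mb (among them RPS15 and RPS28) had a median of -0.16 there, and the 268 other genes had 0.07. On chromosome 2, RPS7, RPL31 and RPL37A had a median of -0.77, the 766 other genes had -0.36, and 88.5% of these were below 0. The 4 members on chromosome 15 (RPS27L among them) had -0.63 and the 400 other genes -0.23. On chromosome 12 the members RPS26, RPL41, RPL6 and RPLP0 had 0.13, and 676 other genes had 0.37.

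Medians for these chromosomes under bortezomib came from other libraries of the same lines. In KO1 the member medians were -0.26 for the distal span of chromosome 19 (other genes -0.22), -0.28 for chromosome 2 (-0.30), -0.20 for chromosome 15 (-0.25) and 0.62 for chromosome 12 (0.39), beside 0.20 for all members. KO2 gave 0.24 for the distal span of chromosome 19 (other genes 0.08), -0.09 for chromosome 2 (-0.21), 0.19 for chromosome 15 (-0.01) and 0.66 for chromosome 12 (0.35). The median of all members in KO2 under bortezomib was 0.29. RPS16, at 457 and 233 FPKM in control vehicle, was at 286 and 141 in KO1 and 509 and 260 in KO2. RPS19 had the same order, at 281 and 157 in control, 164 and 85.7 in KO1, and 319 and 162 in KO2. KO2 and control overlapped for both genes, and in each suffix pair KO1 was the lowest of the 3 lines. With the block RPS19 was at -0.91 in KO1 (SE 0.29, adjusted p 0.108 in limma) and 0.02 in KO2.

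**Figure D5:**
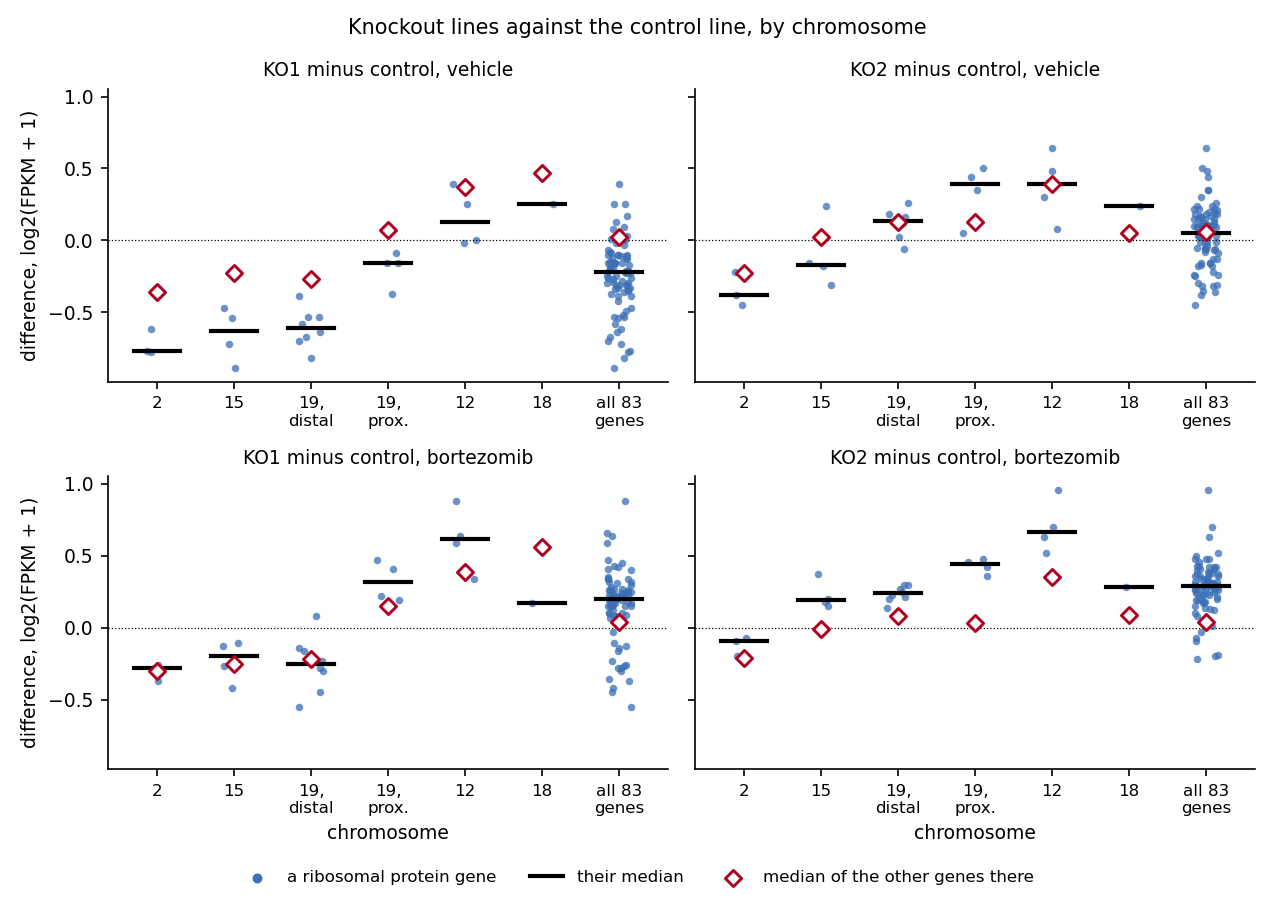
Knockout minus control on the log2(FPKM + 1) scale without the block, for members (points, with their median as a bar) and for the other genes of the same chromosome or span (diamonds, median), in KO1 and KO2 under vehicle and bortezomib. In KO1 under vehicle the members of chromosomes 2 and 15 and of the distal span of 19 lie at medians of -0.77, -0.63 and -0.61, beside -0.36, -0.23 and -0.27 for the other genes.

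The third comparison asked whether bortezomib acted differently in the knockout lines. The mean effect in KO1 and KO2 minus that in control had a member median of 0.31 with 81 of 83 above 0, against 0.01 and 51.1% for all genes. No gene of the 12194 was called with or without the block (0%), and the smallest adjusted p of a member was 0.403 in limma with the block, where 2 members had an unadjusted p under 0.05 and 0 had one without it. By pair the medians were 0.41 in KO1 R1, 0.25 in KO2 R1, 0.39 in KO1 R2 and 0.24 in KO2 R2, and the KO1 and KO2 values of a suffix share a control pair. Leaving 1 control vehicle library out of the fit without the block moved the median to -0.23 (without the unnumbered library) or 0.88 (without R2). The R2-minus-partner difference of control vehicle enters both of these medians. RPL36AL had the highest interaction of the members, at 0.66 (SE 0.27, adjusted p 0.422 in limma with the block), followed by RPL39 at 0.61 (0.503), and RPS27 had 0.58 (0.51). RPS26 had 0.41 (0.513) and RPS19 0.15 (0.904).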

How the data were processed

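RNA was sequenced from 12 A549 libraries (6 groups of 2). The authors deposited FPKM values per gene, with gene lengths. Per the submitters' processing notes CASAVA, STAR 2.5, HTSeq 0.6.1, DESeq2 and hg19 were used, in roles not given in the sources used here. The table's gene IDs all occur in GENCODE 29 and 95.3% have its GRCh38 positions, so the build is unsettled and only the RefSeq sequence windows carry coordinates. FPKM times length gave whole reads for 100% of values (tolerance 0.1). Members and lists were chosen with earlier results of these data known.

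log2(FPKM + 1) was fitted for the 12194 genes whose mean FPKM reached 1 in limma 3.58.1 (R 4.3.3; Python 3.11.15 for summaries) with 1 mean per group and a trend, and p-values were adjusted by Benjamini-Hochberg over all genes (called under 0.05). Fold changes on this scale understate changes of low genes. The replicate suffix was added as a block with R1, R2 and no number as levels. R2-minus-partner differences correlated across genes between all 15 pairs of groups (r 0.696 to 0.89). This does not show that unnumbered libraries pair with R1. Unnumbered libraries occur only in the control line and R1 libraries only in the knockout lines. With the block, the average knockout level against control, over both treatments, thus rests on the R2 libraries alone. In simulated data with 200 of 12194 genes changed 2-fold, the fit for the mean of 3 lines recovered 0 without the block and 191 with it. The simulated R2 shift of a gene was the same in all groups, which is what the block removes. In the sequenced libraries the member shift differed between vehicle and bortezomib, so this recovery does not carry over to the blocked calls. Recovery of smaller differences, such as the member median of 0.29 under bortezomib, was not tested. In the sequenced libraries the fit without the block called 11.6% of all genes for that mean. The R2-minus-partner member median of the control line was -1.14 under vehicle and -0.47 under bortezomib, and its part in the blocked calls was not tested. Alternatives changed the pseudocount, filter, scaling, test or libraries. Named genes are the targeted gene, members called without the block, the 5 highest and 5 lowest members in the mean bortezomib and mean knockout vehicle contrasts, the 3 highest and 3 lowest core levels, paralogs, readthrough genes and 10 preset members with other known roles or paralogs; others were named after their values were seen. Some genes are not reported here by name.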

Additional observations from a re-analysis of the deposited data

How the results depend on the processing

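The planned count test on recovered reads was not run, and limma-voom took its place. Without the replicate block the count of members called stayed at 0 in all 11 contrasts under another pseudocount, no filter, quantile normalization, removal of mitochondrial genes, a common sum, limma-voom and each left-out library. With the replicate block (pairing by title suffix) it was 2 in control, 7 in KO1, 1 in KO2 and 30 in their mean for bortezomib, 1 for KO1 under vehicle and 1 for the mean knockout under bortezomib (32.4, 27.7, 27.0, 54.9, 5.95 and 7.66% of all genes). With unnumbered libraries on the R1 level it was 4, 11, 1, 37, 1 and 1 (32.5, 27.9, 27.0, 54.9, 7.96 and 12.7% of all genes), with 1 each for the mean knockout under vehicle (RPS27L, -0.60) and for KO1 and KO2 under bortezomib. In the same order, limma-voom with the block gave 4, 34, 12, 55, 7 and 1 (37.9, 33.0, 32.4, 58.0, 9.83 and 12.4% of all genes), with 3 for the mean knockout under vehicle and 1 and 1 for KO1 and KO2 under bortezomib. Quantile normalization with the block gave 4, 3, 1, 32, 1 and 1 (34.0, 30.1, 29.4, 56.9, 6.95 and 9.55% of all genes), then 1, 1 and 1, and removal of mitochondrial genes with the block gave 2, 6, 1, 30, 1 and 1 (33.1, 28.3, 27.1, 55.1, 6.77 and 8.34% of all genes), with 1 for KO1 under bortezomib. For the mean bortezomib effect, R2 libraries alone gave 62, the others alone 8, and the block without 1 library, the partner then the R2 library, gave 46 and 10 (control vehicle), 46 and 10 (control bortezomib), 45 and 16 (KO1 vehicle), 25 and 10 (KO1 bortezomib), 23 and 8 (KO2 vehicle) and 52 and 13 (KO2 bortezomib). In these blocked left-out fits the control vehicle and control bortezomib cases rest on the same remaining control pair and are not separate checks. The alternatives added after seeing the data are limma-voom, the combined settings, the library sets and the blocked left-out fits. The member median of KO2 under vehicle was -0.01 with the block, and that of the mean knockout was 0.00 with quantile normalization and the block. With 1 library left out of the fit without the block, the partner of the lost library stands alone, and some ranges crossed or reached 0. These were RPL39L under bortezomib (-0.48 to 0.00), and in the mean knockout under vehicle RPL26L1 (-1.06 to 0.19), RPS28 (-0.34 to 0.68), RPL22 (-0.14 to 0.56), RPL17 (-0.03 to 0.52) and RPL6 (-0.31 to 1.04). The cause was not tested for any of these. Genes under a mean of 1 FPKM were not tested. Among tested members, RPL17 and RPS10 rest on few reads, 623 and 527 over all 12 libraries.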
